A study of Mus musculus with 6 samples.

Results

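The TSC22 domain family is a group of 4 mouse genes, Tsc22d1, Tsc22d2, Tsc22d3 and Tsc22d4, whose proteins share a conserved TSC box followed by a leucine zipper. They were taken from the array by symbol: every probe whose only gene symbol was 1 of these 4 counted as a member, which gave 11 of 38467 probes, and 4 of the 19640 genes with a probe of their own. The family was proposed with the dexamethasone minus vehicle differences of these arrays already known, including the disagreement among the 4 probes of Tsc22d3; that is, its members were selected on these measured differences. All such differences of the members are therefore given as descriptions and carry no test.

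Cultures of C3H10T1/2, a multipotent mouse line of mesenchymal origin, received dexamethasone at 1 µM for 90 minutes (3 arrays) or the solvent DMSO, called vehicle (3 arrays). Dexamethasone, a man-made steroid, switches on the glucocorticoid receptor, and all cultures were kept in DMEM with serum. Each array set 1 culture, labelled with Cy3, against a common RNA pool of the same cell line, labelled with Cy5, which the sample labels say also held RNA of myostatin-treated cells. The findings come from whole cultures of 1 cell line at a single dose and time, so a change in every cell and a change in some of them cannot be told apart.

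TSC22 domain proteins pair with each other through their leucine zippers and act largely by binding other proteins. Tsc22d3 encodes GILZ, the glucocorticoid-induced leucine zipper, one of the best known direct targets of the glucocorticoid receptor; GILZ binds and restrains NF-kappaB, AP-1 and Ras and Raf, and in mesenchymal cells it holds back the fat cell programme by acting on the Pparg gene. Tsc22d1 was found as a gene switched on by TGF-beta, and Tsc22d2 and Tsc22d4 are the less studied relatives, of which Tsc22d4 is known from work on liver lipid metabolism. Long forms of the family bind the pseudokinase Nrbp1 and take part in the WNK kinase response to osmotic stress.

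The promoter sequences of Tsc22d3 and Tsc22d1 are shown because Tsc22d3 held the largest differences of the family and Tsc22d1, the other member with an entry, held only small ones. RefSeq's table for GRCm38.p6 gave a stretch from 250 bases before to 50 bases after each start, with 3 for Tsc22d3 (chromosome X, gene at 140539528 to 140600522, minus strand) and 5 for Tsc22d1 (chromosome 14, 76414961 to 76507765, plus strand). Tsc22d2 (chromosome 3) and Tsc22d4 (chromosome 5) had no entry. The search covered 4 motifs on both strands. They were AGAACA (reverse complement TGTTCT), which 1 subunit of the glucocorticoid receptor recognises, the palindromic glucocorticoid response element, in which AGAACA and TGTTCT stand 3 bases apart and which therefore contains the first motif, the FoxO motif GTAAACA and the cAMP response element TGACGTCA. Capitals mark a match, and sequences run 5′ to 3′ on the gene's strand.
Tsc22d3, chrX:140600473-140600772: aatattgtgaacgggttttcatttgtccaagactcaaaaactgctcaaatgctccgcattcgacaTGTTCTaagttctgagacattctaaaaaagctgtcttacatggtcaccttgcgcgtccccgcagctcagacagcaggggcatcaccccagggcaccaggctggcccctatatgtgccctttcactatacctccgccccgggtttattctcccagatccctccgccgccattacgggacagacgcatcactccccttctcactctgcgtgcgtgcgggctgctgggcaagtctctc
Tsc22d3, chrX:140548522-140548821: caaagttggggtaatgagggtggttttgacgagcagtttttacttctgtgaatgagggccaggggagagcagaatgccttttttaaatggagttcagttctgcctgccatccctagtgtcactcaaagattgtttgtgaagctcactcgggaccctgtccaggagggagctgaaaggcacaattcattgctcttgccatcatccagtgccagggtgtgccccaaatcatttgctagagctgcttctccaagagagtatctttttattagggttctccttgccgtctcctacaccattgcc
Tsc22d3, chrX:140542619-140542918: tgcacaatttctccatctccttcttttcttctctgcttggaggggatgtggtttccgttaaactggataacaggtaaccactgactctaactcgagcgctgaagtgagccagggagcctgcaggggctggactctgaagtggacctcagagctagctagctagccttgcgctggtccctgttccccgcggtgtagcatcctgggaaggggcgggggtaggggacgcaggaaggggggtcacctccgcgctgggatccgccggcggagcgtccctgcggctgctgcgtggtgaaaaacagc
Tsc22d1, chr14:76503976-76504275: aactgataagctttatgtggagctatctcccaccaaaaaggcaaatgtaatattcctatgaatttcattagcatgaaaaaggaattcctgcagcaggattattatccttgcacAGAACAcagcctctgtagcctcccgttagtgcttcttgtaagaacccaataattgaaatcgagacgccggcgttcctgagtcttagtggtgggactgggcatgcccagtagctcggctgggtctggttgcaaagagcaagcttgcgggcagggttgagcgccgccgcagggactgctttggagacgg
Of the 3 Tsc22d3 stretches, 1 held TGTTCT, which began 185 bases before the start. Of the 5 Tsc22d1 stretches, 1 held AGAACA, 137 bases before the start, and it is the one shown. Among all 32851 promoter stretches in the table, 19.0% held AGAACA or TGTTCT, so a match is common. The palindromic element (0.00913% of stretches), the FoxO motif (3.65%) and the cAMP response element (1.79%) did not occur in these letters of either gene, which says nothing of sites elsewhere.

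The values are log2 ratios of the culture to the pool, judged so from the numbers themselves, and a difference of 1 is 2-fold. The direction culture over pool is likely but not settled: part of its basis is that known glucocorticoid targets, Tsc22d3 among them, read higher, so the sign of Tsc22d3 below cannot count as a finding. If it ran the other way, each "higher" would read "lower" and the reverse. The arrays differed in quality. Missing values numbered 1695 to 4290 on the dexamethasone arrays and 552 to 932 on the vehicle arrays, and ratios of whole numbers from 1 to 10, as very dim spots give, made up 3.79% to 12.7% of dexamethasone values and 1.86% to 7.73% of vehicle values. The arrays also fell into 2 sets. After group means were removed, dexamethasone 1 correlated with vehicle 1 and 2 (Spearman coefficients of 0.29 and 0.34 over 22549 features), dexamethasone 2 and 3 with vehicle 3 (0.28 and 0.36), and every other such pair was negative (-0.47 to -0.18). Removing group means makes the deviations within a group cancel out, so the negative pairs follow in part from the positive ones. Differences of the members are also given within each of these sets of arrays. The median dexamethasone minus vehicle difference was 0.32 over the 27046 genes and unnamed probes, and 0.24 over 36465 single probes. A ratio to a pool of the same line gives no level, so the line could not be checked against its markers; the 10 mesenchymal markers had array medians of -0.12 to 0.15 with dexamethasone and 0.087 to 0.24 with vehicle. Markers of other cells, 4 each of blood, endothelial and epithelial type, had array medians of -1.29 to 1.52, 0.029 to 2.73 and -0.68 to 1.96 with dexamethasone, against -0.88 to 0.62, -0.48 to 1.13 and -0.18 to 0.35 with vehicle. Their median differences were 1.07, 1.25 and 1.16, against -0.32 for the mesenchymal markers and 0.32 for all features. limma called 0 of the 12 markers of other cells at the adjusted threshold and 1 had an unadjusted p under 0.05. The part of these markers in the results was not tested.

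All 11 member probes had values on all 6 arrays, and all but 1 were free of ratios of whole numbers. With dexamethasone, 4 probes lay above all vehicle values, 1 lay below them and 6 overlapped them. Of all 31071 complete probes, 10.3% lay above and 8.42% below. The differences of the 11 probes ran from -0.67 to 4.49 with a median of 0.27, beside 0.24 for all probes. The 2 largest, 4.49 and 2.36, were both of Tsc22d3, and the next was 1.19.

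**Figure D1:**
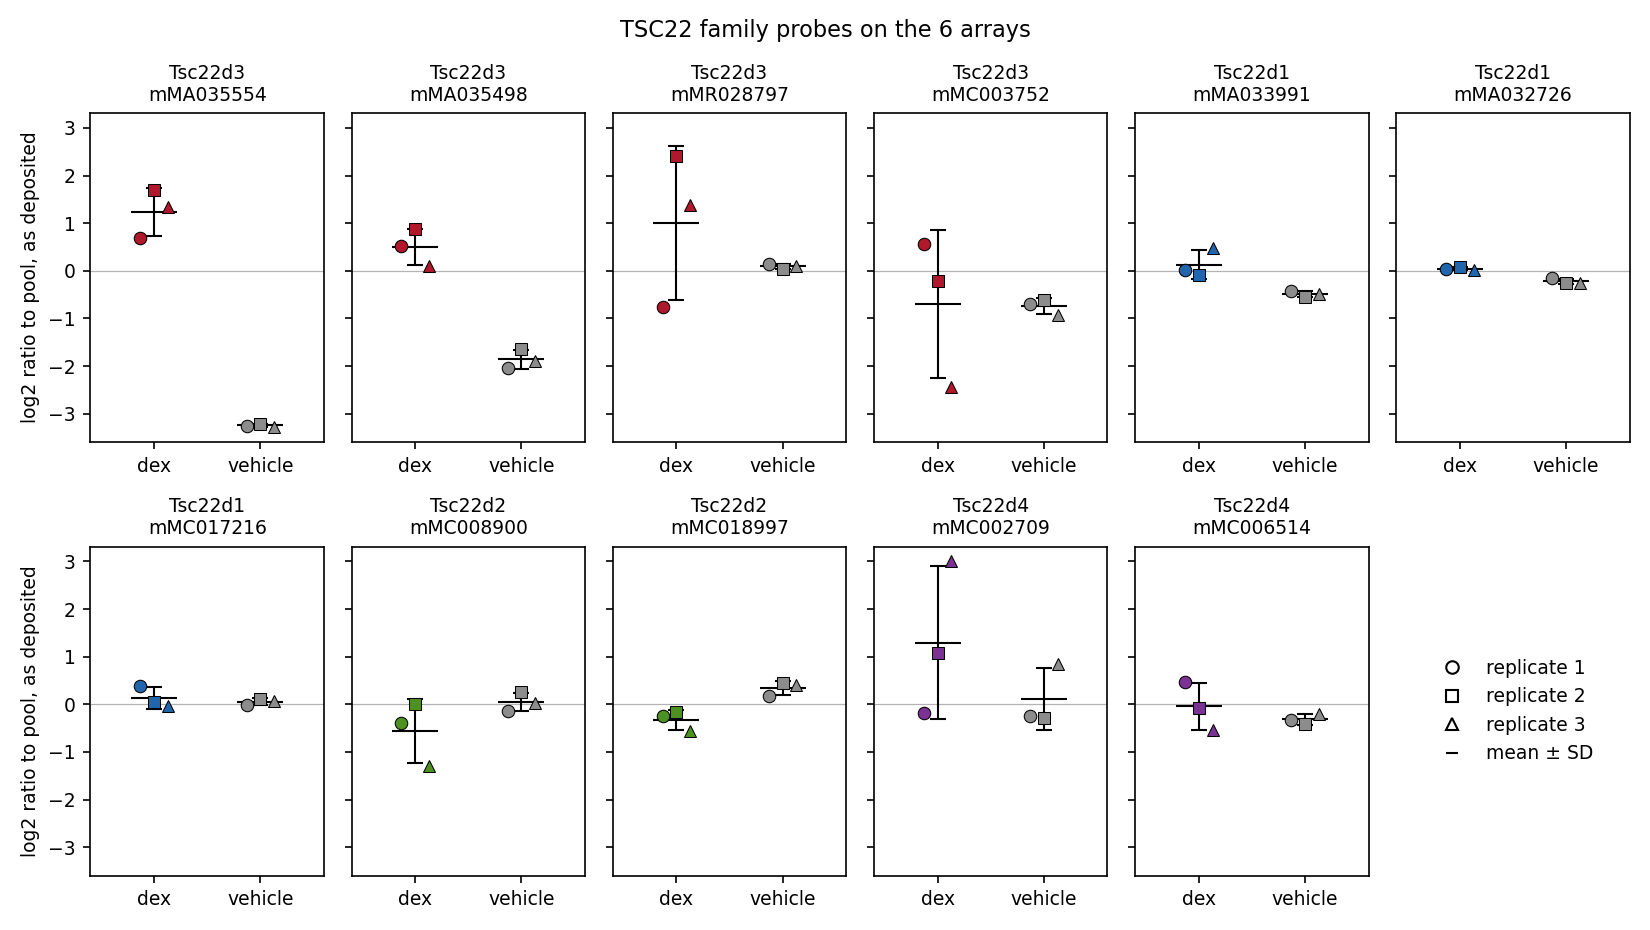
Log2 ratio to the pool (vertical axis, as deposited) of each of the 11 TSC22 family probes, dexamethasone in colour on the left and vehicle in grey on the right of each panel; symbols are replicates 1 to 3 and bars are mean ± SD (n = 3). The first 2 Tsc22d3 probes separate without overlap, while the other 2 spread over 3.17 and 3.01 log2 units among the dexamethasone arrays.

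Tsc22d3, the gene of GILZ, had the largest difference of the family and the widest spread between its probes. Probe mMA035554 read 0.69, 1.69 and 1.34 on the dexamethasone arrays (replicates 1, 2 and 3), against -3.26, -3.21 and -3.28 on the vehicle arrays. The lowest dexamethasone value was 3.90 above the highest vehicle value, and the vehicle arrays lay within 0.071 of each other. The means were 1.24 ± 0.51 with dexamethasone and -3.25 ± 0.036 with vehicle (SD, n = 3 each), a 22.5-fold higher level with dexamethasone, and 99.2% of all probes had a smaller difference (0.754% with the sign turned).

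Probe mMA035498 of Tsc22d3 read 0.53, 0.87 and 0.097 with dexamethasone, against -2.04, -1.64 and -1.90 with vehicle. The groups again did not overlap, with a gap of 1.73 between the nearest values. Its means of 0.50 ± 0.39 with dexamethasone and -1.86 ± 0.21 with vehicle (SD, n = 3 each) made a 5.13-fold higher level with dexamethasone. Within the sets of arrays the difference was 2.37 for dexamethasone 1 against vehicle 1 and 2, and 2.38 for dexamethasone 2 and 3 against vehicle 3. For mMA035554 the same values were 3.92 and 4.80. Groups that do not overlap over all arrays must also separate within each set, so only the sizes are of interest here.

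The other 2 probes of Tsc22d3 did not separate the groups. Probe mMR028797 read -0.76, 2.41 and 1.39 with dexamethasone, against 0.14, 0.037 and 0.10 with vehicle. Dexamethasone 1 lay below and dexamethasone 2 and 3 above all vehicle values. The difference was -0.85 in the set with dexamethasone 1 and 1.80 in the other, opposite in sign. Probe mMC003752 read 0.57, -0.21 and -2.44 with dexamethasone, against -0.70, -0.60 and -0.93 with vehicle. Here dexamethasone 1 and 2 lay above and dexamethasone 3 below all vehicle values, and the difference was 1.22 in the set with dexamethasone 1 and -0.40 in the other. The difference over all arrays, 0.92 for mMR028797 and 0.049 for mMC003752, hid spreads of 1.62 and 1.56 (SD, n = 3) among the dexamethasone arrays, against 0.051 and 0.17 among the vehicle arrays. Single arrays set both values: mMC003752 differed by 0.92 without dexamethasone 3 and by -0.58 without dexamethasone 1, and mMR028797 by 1.81 without dexamethasone 1 and 0.22 without dexamethasone 2.

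The listed transcripts did not sort the probes. mMA035554 and mMR028797 are annotated to the same RefSeq mRNA, and their differences lay 3.57 apart. mMA035498 and mMC003752 are annotated to the same GenBank mRNA and lay 2.31 apart. In each pair 1 probe separated the groups and the other did not. RefSeq lists 8 transcripts for Tsc22d3, and which of them, or which of the 3 starts shown above, each probe reads could not be told because probe sequences were not used here. Among the 373 genes with exactly 4 complete probes, the range of probe differences had a median of 0.79. A range of at least the 4.44 of Tsc22d3 was found in 14 genes (3.75%), Tsc22d3 included. The disagreement was known when the family was chosen, so this share is a description and tests nothing.

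Averaged over its 4 probes, Tsc22d3 read 0.26, 1.19 and 0.097 with dexamethasone, against -1.47, -1.35 and -1.50 with vehicle. The 3 dexamethasone arrays lay at least 1.45 above the vehicle arrays. Because the mean mixes probes that separate the groups with probes that do not, it depended on which were included: the gene was 2.16-fold higher with dexamethasone without mMA035554, 3.53-fold without mMA035498, 4.92-fold without mMR028797 and 6.02-fold without mMC003752. In all 4 cases the groups stayed apart. The mean differed by 1.67 in the set with dexamethasone 1 and by 2.14 in the other, and it stood 1.64 above the median of all features.

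**Figure D2:**
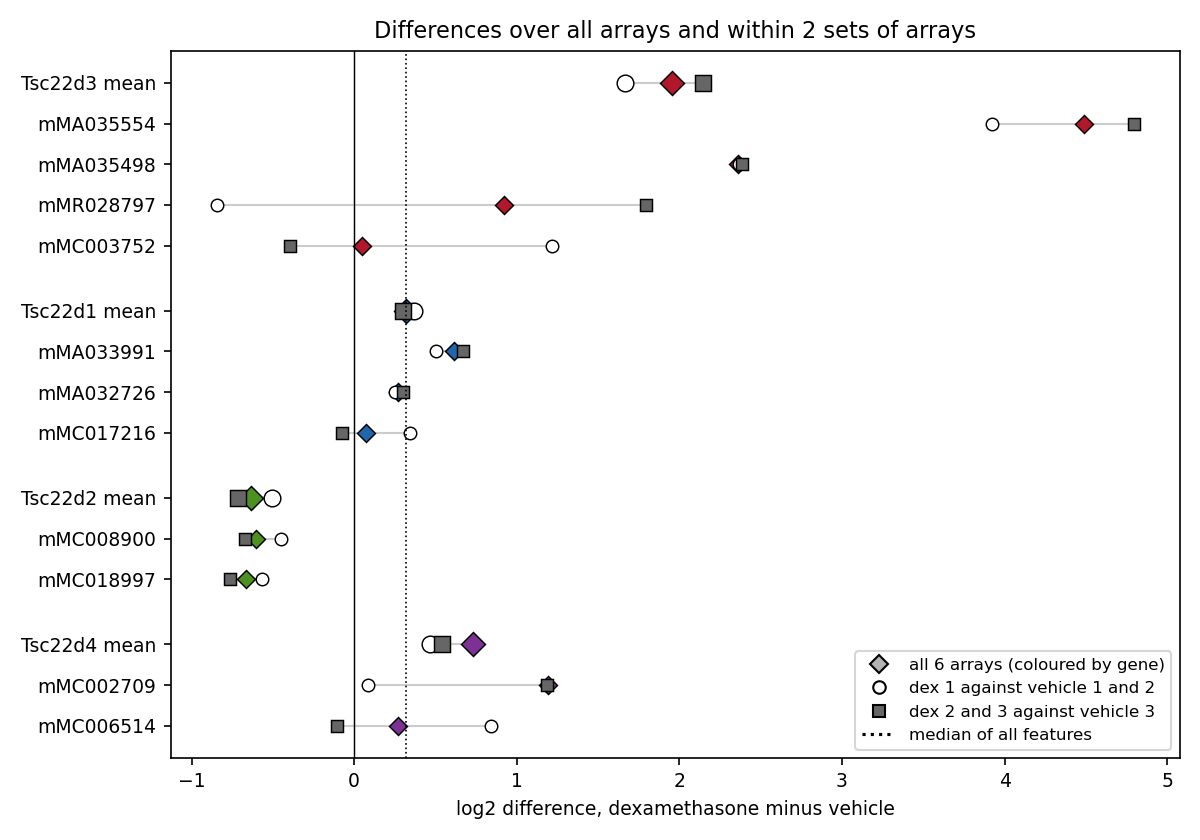
Dexamethasone minus vehicle differences (horizontal axis, log2) of each gene mean and probe: diamonds for all 6 arrays, open circles for dexamethasone 1 against vehicle 1 and 2, squares for dexamethasone 2 and 3 against vehicle 3, and a dotted line at the median of all features, 0.32. The Tsc22d2 points stay below 0 in both sets, whereas mMR028797 and mMC003752 of Tsc22d3 change sign between the sets in opposite ways.

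Tsc22d1, the TGF-beta-stimulated member, sat where the array as a whole sat. Its mean over 3 probes read 0.15, 0.0053 and 0.15 with dexamethasone, against -0.20, -0.23 and -0.22 with vehicle. The groups did not overlap, and both were narrow, with an SD of 0.085 for dexamethasone and 0.017 for vehicle (n = 3 each). The difference of 0.32, a 1.25-fold higher level with dexamethasone, equalled the median of all features. It was 0.37 in the set with dexamethasone 1 and 0.30 in the other. Relative to other genes the direction depended on the scaling: the difference was 0.012 after median centring, where the median of all features was 0.018, and 0.28 after quantile normalization, where that median was -0.034.

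The 3 probes of Tsc22d1 gave small differences of unequal size. Probe mMA033991 read 0.012, -0.097 and 0.48 with dexamethasone, against -0.42, -0.56 and -0.48 with vehicle, a 1.53-fold higher level with dexamethasone (difference 0.50 in the set with dexamethasone 1 and 0.67 in the other). Probe mMA032726 read 0.045, 0.075 and 0.017 with dexamethasone, against -0.16, -0.26 and -0.26 with vehicle. Neither probe overlapped between groups, and mMA032726 differed by 0.25 in the set with dexamethasone 1 and 0.30 in the other. After median centring mMA033991 differed by 0.31 and mMA032726 by -0.040, and after quantile normalization by 0.61 and 0.27. Probe mMC017216, annotated to every transcript listed for the other two, overlapped between the groups, with 0.39, 0.038 and -0.033 with dexamethasone and -0.021, 0.12 and 0.078 with vehicle. Its difference of 0.075 was 0.35 in the set with dexamethasone 1 and -0.076 in the other. It was -0.23 after median centring and -0.045 after quantile normalization. The range of 0.54 between the 3 probes was below the median of 0.61 for the 1111 genes with 3 complete probes.

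Tsc22d2 was the only member lower with dexamethasone, and its probes gave nearly the same difference on the values as deposited. Probe mMC018997 read -0.25, -0.16 and -0.56 with dexamethasone, against 0.18, 0.44 and 0.40 with vehicle, without overlap. Probe mMC008900 read -0.39, 0.013 and -1.29 with dexamethasone, against -0.13, 0.25 and 0.028 with vehicle, and dexamethasone 2 overlapped the vehicle range. The differences of -0.67 and -0.61 were 0.059 apart, a range exceeded or equalled by 90.7% of the 3357 genes with 2 complete probes. Both were negative in the set with dexamethasone 1 (-0.57 and -0.45) and in the other (-0.76 and -0.67). They were further apart in other settings: -0.55 and -0.24 without dexamethasone 3, and -1.50 and -1.04 after quantile normalization.

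The mean of Tsc22d2 was -0.44 ± 0.44 with dexamethasone and 0.20 ± 0.16 with vehicle (SD, n = 3 each), a 1.55-fold lower level with dexamethasone. The array means of -0.32, -0.072 and -0.93 with dexamethasone lay below the 0.027, 0.35 and 0.22 with vehicle, with a gap of only 0.099 between the nearest values. Of all features, 6.49% had a smaller (more negative) difference, or 93.5% with the sign turned. It was -0.51 in the set with dexamethasone 1 and -0.71 in the other. Relative to the median of all features it stood at -0.96, and it was -0.94 after median centring and -1.27 after quantile normalization. Without dexamethasone 3, the lowest array, it was -0.39.

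Tsc22d4, on either probe, did not separate the groups. Probe mMC006514 read 0.47, -0.072 and -0.53 with dexamethasone, against -0.33, -0.42 and -0.19 with vehicle. The dexamethasone arrays lay on both sides of the vehicle arrays, and the difference was 0.84 in the set with dexamethasone 1 and -0.11 in the other. Probe mMC002709 read -0.19, 1.08 and 3.00 with dexamethasone, against -0.25, -0.30 and 0.85 with vehicle. Its value on dexamethasone 3 is a ratio of whole numbers, and the low-signal filter, which drops a probe if even 1 array has such a ratio, no value or one larger than 10 in size, removed this probe alone among the 11. On this probe the replicate 3 arrays were the highest of both groups. The difference of 1.19 was 0.084 in the set with dexamethasone 1 and 1.19 in the other, and it was 0.34 without dexamethasone 3 and 1.94 without dexamethasone 1.

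Averaged over both probes, Tsc22d4 read 0.14, 0.50 and 1.24 with dexamethasone, against -0.29, -0.36 and 0.33 with vehicle. Vehicle 3 lay between dexamethasone 1 and 2, so the groups overlapped. The means were 0.63 ± 0.56 with dexamethasone and -0.11 ± 0.38 with vehicle (SD, n = 3 each). The difference of 0.73 was 0.46 in the set with dexamethasone 1 and 0.54 in the other, and 0.27 once the low-signal probe was left out. It was 0.43 without dexamethasone 3 and 0.97 without dexamethasone 1.

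In order of the gene means, Tsc22d3 (1.95) came before Tsc22d4 (0.73), Tsc22d1 (0.32) and Tsc22d2 (-0.64), and this order runs backwards with the sign turned. Tsc22d4 and Tsc22d1 lay closer together than the SD of the dexamethasone arrays of Tsc22d4. Gene means lay above all vehicle values for Tsc22d3 and Tsc22d1 and below them for Tsc22d2; of the 22880 complete features, 9.95% lay above and 7.29% below. Across the family the dexamethasone arrays scattered more than the vehicle arrays. The SD was larger with dexamethasone in 10 of 11 probes, the exception being mMA032726 of Tsc22d1, and in 85.7% of all complete probes. The median SD of the 11 probes was 0.50 with dexamethasone and 0.11 with vehicle, against 0.61 and 0.14 over all complete probes. A difference of at least 2-fold occurred in 3 of the 11 probes and in 27.1% of all probes, so its size alone was common on these arrays.

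**Figure D3:**
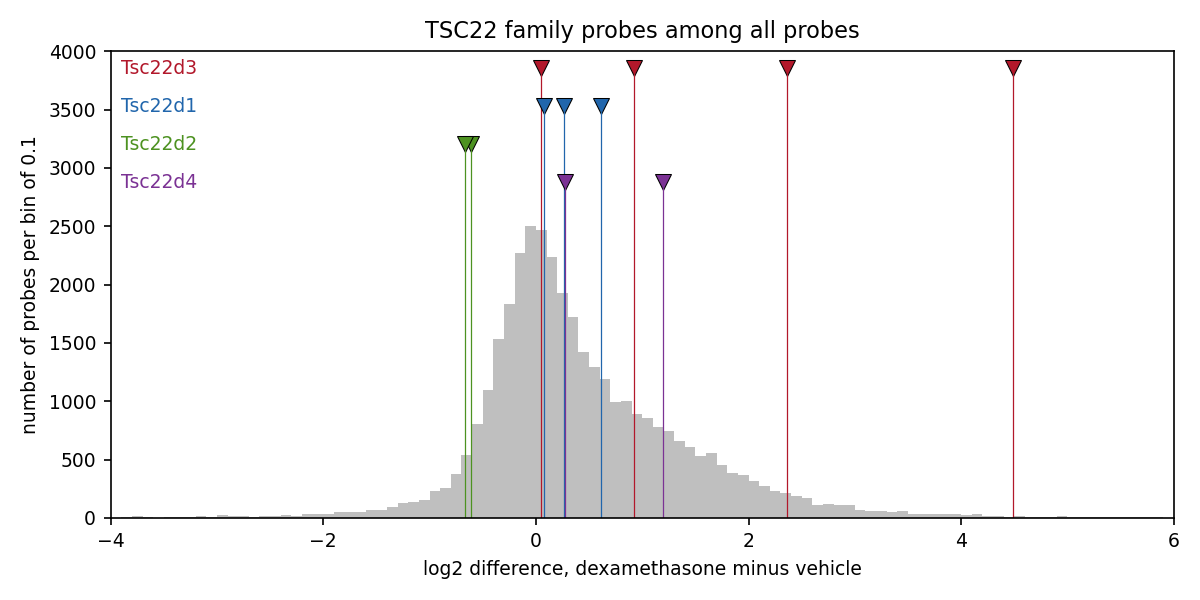
Number of probes (vertical axis) per 0.1 bin of dexamethasone minus vehicle difference (horizontal axis, log2; 36465 probes, of which 153 lie below and 168 above the plotted range), with the 11 TSC22 family probes marked by gene. The mMA035554 and mMA035498 probes of Tsc22d3 lie in the right tail at 4.49 and 2.36, the Tsc22d2 probes near -0.6 on the left, and the others within the body of the distribution.

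Likeness to each gene mean was measured as Pearson's r over the 6 arrays, among 10617 other genes whose probes were all free of low signal. It compares the shape over arrays and not the size. With few arrays in 2 groups it mainly follows the group difference for Tsc22d3 and Tsc22d1. For Tsc22d2, with a difference of -0.64 beside an SD of 0.44 with dexamethasone, it follows the scatter among arrays as well. The same holds for Tsc22d4, whose groups overlapped and whose mean includes the low-signal probe mMC002709. The 5 genes most like Tsc22d3 were Rrp8 (r = 0.999), Ccn2 (0.997), Col4a1, Mid2 and Mog (0.995 each). Rrp8 encodes a nucleolar methyltransferase, and its difference of 0.24 was far smaller than that of Tsc22d3. Ccn2, a matricellular growth factor, differed by 1.02, and Col4a1, a basement membrane collagen chain, by 0.73. For Tsc22d1 the most alike were Tent5b, Vcan and Jcad (r = 0.996 to 0.997), for Tsc22d2 Psmd12, Pip4k2a and Acot9 (0.994 each), and for Tsc22d4 Scap, Psmd13 and Tctn2 (0.993 to 0.998).

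Genes that act with the family were followed in 4 lists drawn from general knowledge, with limma over the whole table. The lists and the low-signal filter were chosen with earlier results of these data known, so the p-values of list genes are not independent support. limma called 0 of 27046 features (0.0%) at a Benjamini-Hochberg adjusted p under 0.05, and 1468 (5.43%) had an unadjusted p under 0.05. None of the list members passed, so the values below describe differences that did not pass. Of 11 measured partners and targets of GILZ, 7 had a difference above 0 and 4 below, with a median of 0.12 against 0.32 for all features, and 2 had an unadjusted p under 0.05. These were Cebpb and Cebpd, transcription factors of early fat cell differentiation, with limma adjusted p of 0.141 and 0.33. With low-signal probes left out, Cebpb passed (difference 3.18, limma adjusted p = 0.0358), where 0.169% of 17152 features were called. Jun, an AP-1 subunit, differed by 0.35 ± 0.17 and Smad2, a TGF-beta signal transducer, by -0.33 ± 0.19 (SE). The low-signal filter removed the only probe of Jun. Pparg, the fat cell regulator that GILZ restrains, read -0.043 ± 0.43 with dexamethasone and 0.37 ± 0.19 with vehicle (SD, n = 3 each), with overlap; it lies outside the rule for named genes and was chosen after its values were seen.

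In the NRBP and WNK group, which holds the TSC22-binding pseudokinases with the WNK kinases, their helper kinases and the cotransporters downstream, 14 of 15 genes had a difference above 0 and 1 below, with a median of 0.23 that lay under the 0.32 of all features. Most features of the whole table also lay above 0, as their median shows. Wnk4, a kinase that controls cation-chloride cotransporters, read 0.63, 0.57 and 0.98 with dexamethasone, against -0.63, -0.87 and -0.64 with vehicle. Its groups did not overlap, and the level was 2.72-fold higher with dexamethasone (limma adjusted p = 0.273, or 0.092 with low-signal probes left out). The difference was 1.38 in the set with dexamethasone 1 and 1.42 in the other. Genes named for a small p tend to scatter little within groups, so near-equal sizes in both sets follow in part from that choice. Slc12a7, a potassium-chloride cotransporter, differed by 0.65 ± 0.18 (SE), also without overlap. Wnk3 and the neuronal cotransporter gene Slc12a5 differed by 1.23 ± 0.75 and 2.53 ± 1.66 (SE), with overlap. The only probe of Wnk3 was removed by the low-signal filter. The pseudokinase genes Nrbp1 and Nrbp2 differed by 0.091 ± 0.17 and 0.082 ± 0.26 (SE), and were named outside the rule after their values were seen. That filter also removed the only probe of Nrbp1.

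On the TGF-beta side of Tsc22d1, 8 of 12 genes had a difference below 0 and 4 above, with a median of -0.23 against 0.32 for all features. Smad3, a signal transducer of TGF-beta, read -0.29, -0.31 and -0.23 with dexamethasone, against 0.24, 0.24 and 0.32 with vehicle. It was 1.45-fold lower with dexamethasone, with no overlap (limma adjusted p = 0.732). The difference was -0.53 in the set with dexamethasone 1 and -0.59 in the other, where near-equal sizes again follow in part from the small scatter. The ligand gene Tgfb3 differed by -0.58 ± 0.19 and Tgfb1 by 0.63 ± 0.34 (SE), the first without and the second with overlap. For Tgfb1 the only probe was removed by the low-signal filter. Smad3 and Tgfb3 were the 2 genes with an unadjusted p under 0.05.

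Among 8 known regulators of Tsc22d3, 4 had a difference above 0 and 4 below, with a median of 0.027 against 0.32 for all features. Nr3c1, the glucocorticoid receptor itself, read -0.19, -1.24 and -0.51 with dexamethasone, against 0.32, 0.16 and 0.25 with vehicle. The groups did not overlap, and the level was 1.85-fold lower with dexamethasone (limma adjusted p = 0.732), with differences of -0.43 in the set with dexamethasone 1 and -1.12 in the other. Foxo3, a FoxO factor known to act on Tsc22d3, differed by 1.36 ± 0.32 (SE; limma adjusted p = 0.582), Foxo6 by 0.43 ± 0.18 and Creb1 by -0.13 ± 0.16 (SE). Both Nr3c1 and Foxo3 had an unadjusted p under 0.05.

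**Figure D4:**
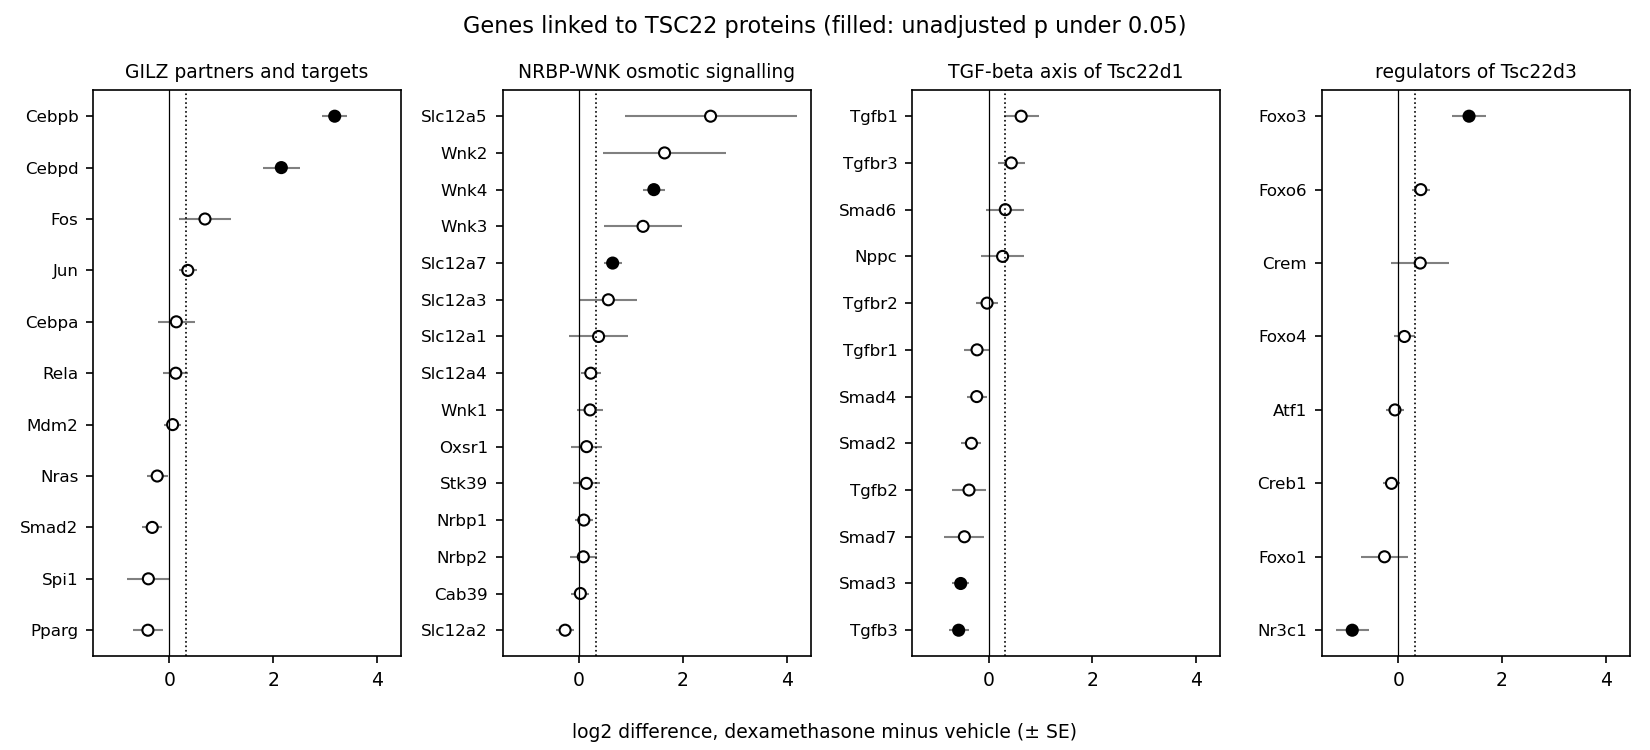
Dexamethasone minus vehicle difference (horizontal axis, log2, ± SE of the limma fit) of each measured gene in the 4 lists, filled where the unadjusted p was under 0.05, with a dotted line at the median of all features. Cebpb and Cebpd lead the GILZ list, Wnk4 is the filled gene with the largest difference in its list, and Smad3 and Tgfb3 lie below 0.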

How the data were processed

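RNA of 3 dexamethasone and 3 vehicle cultures was measured on 6 two-colour arrays, grouped by the sample titles. The authors deposited 1 value per probe and array, taken as log2 ratios. On 4 arrays a few deposited values exceed 100 in size, which no log2 ratio of intensities gives, so the unit of those columns was recorded as a score, but they were used as log2 ratios throughout, as the other 2 were. limma was used per the submitters' processing notes. Its version, the background correction and the normalization were not given in the sources used here. No scanner files were used. The number of arrays limits the precision.

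Probes were named through the platform annotation (29456 of 38467 with 1 symbol, 760 with several, 8251 unlisted). Entrez identifiers of 28735 were found in RefSeq's GRCm38.p6 gene table, and 0 symbols changed. Probes of a gene were averaged, and at least 2 values per group were required. limma 3.58.1 in R 4.3.3 (lmFit and eBayes, two-sided, Benjamini-Hochberg over all features at 0.05) was fitted on the whole table without a block and tested on simulated data. The members, lists and the low-signal filter were chosen with earlier results of these data known. Named genes are the members, up to 4 list genes by p, and the genes most like each member. List genes missing from the counts were not analysed here.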

Additional observations from a re-analysis of the deposited data

How the results depend on the processing

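limma called 0 features in the planned fit and in all alternatives run but 1. With low-signal probes left out it called 29 of 17152, 26 higher and 3 lower, and 1 member of the GILZ list, Cebpb. Fewer features were tested there, and the filter also drops probes with missing or very large values, those beyond 100 in size included. Cebpb had a limma adjusted p of 0.141 in the planned fit and 0.0358 there, with the same difference of 3.18. Whether the number of tests or the dropped values made these calls was not tested. In the NRBP and WNK, TGF-beta and regulator lists 0 genes were called under every alternative run. The same-numbered arrays deviated together for replicates 1 and 3 (Spearman 0.29 and 0.36) but not for replicate 2 (-0.18), so the numbers were not taken as pairs; with the replicate number as a block limma called 0 at the adjusted and 1329 at the unadjusted threshold, against 1468 without it, and the member differences are the same by construction. Without 1 array the count called was 0 throughout, and the unadjusted count ran from 695 to 6947, the highest without dexamethasone replicate 1. A block for the 2 sets of arrays, chosen after seeing the data, called 0 (1518 unadjusted).

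The Tsc22d3 mean difference of 1.95 ran from 1.62 to 2.16 without 1 array, and was 1.65 after median centring, 2.17 after quantile normalization and 2.15 as the median over probes. Median centring lowered the median of all features to 0.018 and turned mMA032726 of Tsc22d1 to -0.040. That probe differed by 0.27 after quantile normalization (median of all features -0.034). Also negative after median centring, though not as deposited, were mMC017216 of Tsc22d1 (-0.23), mMC003752 of Tsc22d3 (-0.26) and mMC006514 of Tsc22d4 (-0.038). After quantile normalization they differed by -0.045, 0.31 and 0.38. Quantile normalization gave 5.78 for mMA035554 and 0.042 for mMR028797. The cause of these shifts was not tested. The number of arrays limits all of these values.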
